A study of Mus musculus with 12 samples.

Results

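The genes described here are the transcription factors of the NFAT family, the subunits of calcineurin and the calcineurin regulator Rcan1, measured in follicular helper T (Tfh) cells that carried either a Cre transgene alone or the same transgene with a floxed Bcl6 allele. They were chosen by name, as the entries of the count table with the symbols Nfatc1, Nfatc2, Nfatc3, Nfat5, Ppp3ca, Ppp3cb, Ppp3cc, Ppp3r1 and Rcan1, and all 9 of the 9 names were found among its 24561 genes. The cells were C57BL/6 OT-II T cells, which carry one T cell receptor specific for ovalbumin. Those labelled wild-type carried Cd4-cre, and those labelled BCL6-insufficient carried Cd4-cre together with Bcl6 fl/+, so Cre under the Cd4 promoter was present in both. They had been transferred into CD45.1 SAP-deficient hosts, whose own T cells lack the adaptor SAP, and the hosts were then given NP-OVA with LPS in alum under the skin. On day 3, CXCR5hi PD-1hi cells were sorted from the draining lymph nodes of 3 hosts per genotype, and each host, called a mouse below, gave 2 technical repeats of about 200 cells, or 12 libraries from 6 mice. The ages of the mice and the number of donors are not given in the sources used here. A test over the 3 mice of a label therefore measures the spread between hosts, which may have shared a donor, and donor and genotype cannot be told apart.

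NFAT proteins are transcription factors that stay in the cytoplasm of a resting T cell because they are phosphorylated. When the T cell receptor raises cytosolic calcium, calmodulin binds calcineurin, a phosphatase made of a catalytic A subunit (encoded by Ppp3ca, Ppp3cb or Ppp3cc) and a regulatory B subunit (Ppp3r1 in T cells). Calcineurin removes the phosphates, NFAT enters the nucleus and binds DNA, often beside AP-1 proteins, and kinases such as GSK3 and DYRK send it back. Nfatc1, Nfatc2 and Nfatc3 encode calcium-regulated factors, whereas Nfat5 encodes a relative that responds to osmotic stress and is not a calcineurin substrate. Rcan1 encodes a protein that binds and inhibits calcineurin and is itself a known NFAT target.

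The libraries held between 3343375 and 8315722 counts with the BCL6-insufficient label and between 5240715 and 7266106 with the wild-type label. Levels are given as normalised CPM, counts scaled to the library size after TMM normalisation. For Bcl6, the gene the genotype targets, this level was 149 ± 2.18 over the 3 mice labelled BCL6-insufficient, against 62.4 ± 11.5 over the 3 labelled wild-type (mean and SD). Bcl6 was thus called higher where the label names a floxed allele (2.38-fold, edgeR adjusted p = 6.3e-07), and every direction below rests on the labels. Counts over the whole gene do not separate a recombined allele from an intact one. All 10 markers on a Tfh list were detected in every library, and their summed CPM ran from 8711 to 10286 with the BCL6-insufficient label and from 6448 to 8572 with the wild-type label. Trac, a T cell receptor constant chain, made up most of that sum and was called higher (log2 fold change 0.55), as was Icos (0.64). On the same list Cd4 (-0.34), Cxcr5 (-0.40), Pdcd1 (-0.42) and Tox2 (-0.80) were called lower, and the other 4 were not called. The summed CPM of 8 B cell markers lay between 468 and 958 in all libraries and was mostly Ighm, while Ms4a1 was at 0 in 9 of the 12 libraries. Of the 4 myeloid markers in the table, Cd14 was at 0 in 12 of 12 libraries, while the sum of the list was 9.92 to 37.6 with the BCL6-insufficient label against 3.25 to 11.5 with the wild-type label. Lyz2 on that list was called higher, at 8.50 against 1.18 CPM (log2 fold change 2.64, edgeR adjusted p = 0.00531), and Csf1r was not called (0.77, edgeR adjusted p = 0.0676). Of 4 markers of regulatory follicular T cells, summing to 156 to 199 against 84.3 to 161 CPM, Ikzf2 made up most and was called higher (log2 fold change 0.62, edgeR adjusted p = 0.00204), while Foxp3 was not called (-0.58). The part of these differences in the results below was not tested. In pooled cells, fewer cells of a type and less RNA per cell cannot be told apart.

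Of the 9 genes, Ppp3cb rose and Nfatc1 fell in the mice labelled BCL6-insufficient, and the other 7 did not pass the test. A gene was called when its adjusted p over all 12719 genes tested was under 0.05 in edgeR's quasi-likelihood test on counts summed per mouse. All 9 passed the filter on low counts. The count of 2 in 9 stands beside 18.0% of all genes tested (9.17% higher, 8.82% lower), so the share of called genes among them was close to the background. In 4 of the 9 (Nfatc1, Nfatc2, Ppp3cb and Rcan1) the mice did not overlap between the labels, as was so for 34.4% of all genes tested. At the level of single libraries, the 6 of one label lay apart from the 6 of the other only for Ppp3cb, and for 8.51% of all genes. The median log2 fold change of the 9 was 0.23, beside 0.011 over all genes.

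**Figure D1:**
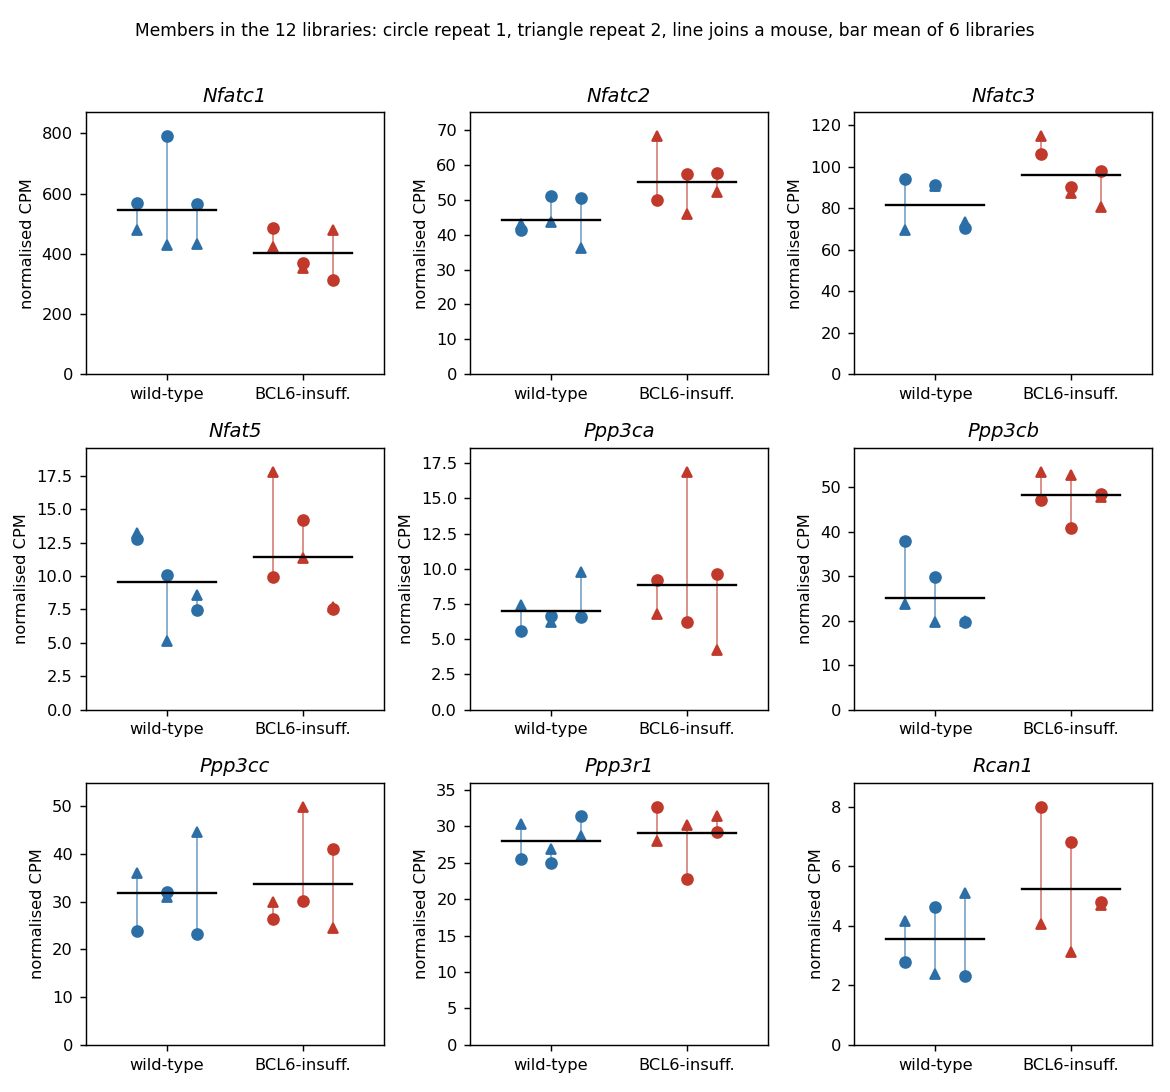
Normalised CPM of each of the 9 genes (y axis, linear from 0) in the 12 libraries, with circles for repeat 1, triangles for repeat 2, a thin line joining the repeats of a mouse and a black bar at the mean of the 6 libraries of a label. Only for Ppp3cb do the libraries of the labels lie fully apart, from 40.8 to 53.6 against 19.7 to 37.9 CPM.

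The genes differed widely in level. Per kilobase of exon, over the 6 mice, Nfatc1 stood far above the rest with 63.2 ± 10.7 (SD, n = 6) normalised CPM per kb. Ppp3cc followed with 10.8 ± 1.20 CPM per kb, Ppp3r1 with 8.78 ± 0.666, Nfatc3 with 7.54 ± 1.11, Nfatc2 with 4.70 ± 0.698 and Ppp3cb with 4.14 ± 1.51. Rcan1 (1.43 ± 0.316 CPM per kb), Ppp3ca (0.761 ± 0.165) and Nfat5 (0.577 ± 0.179) were the lowest. The ranges over mice overlapped between the neighbours Ppp3r1 and Nfatc3, Nfatc2 and Ppp3cb, and Ppp3ca and Nfat5, so their order was not resolved over all mice. In the mice labelled wild-type, Nfatc2 (3.98 to 4.42 CPM per kb) lay wholly above Ppp3cb (2.25 to 3.49). The order in the middle also depends on the length used. With the length of the longest transcript in place of all exons, Nfatc3 (14.8 CPM per kb) came second and Ppp3cb (9.52) came before Nfatc2 (7.29), while Nfatc1 (98.4) remained first and Nfat5 (0.789) last. On this scale too the ranges over mice overlapped between Nfatc3 and Ppp3cc and between Ppp3cb and Nfatc2. Ppp3cb and Nfatc2 interleaved in the mice labelled wild-type (5.17 to 8.03 and 6.17 to 6.85 CPM per kb), and Ppp3cb lay above in those labelled BCL6-insufficient (11.8 to 13.3 and 7.70 to 8.91).

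Nfatc1, the most abundant of the NFAT transcripts in these cells, lies on the minus strand of chromosome 18 of GRCm38, from 80606205 to 80713071. It was lower in the mice labelled BCL6-insufficient, with 449.5, 362 and 421 normalised CPM in mice 1 to 3, than in those labelled wild-type, with 523, 589 and 488. Every mouse of one label was below every mouse of the other. The means were 411 ± 44.7 (SD, n = 3) and 534 ± 51.5 (SD, n = 3) CPM, or 0.770-fold. The log2 difference was -0.38 with a standard error of 0.10, and edgeR gave an adjusted p of 0.0103. A two-sided exact permutation test over the mice gave p = 0.1, below which 3 against 3 cannot go. The single libraries did overlap. Those labelled BCL6-insufficient held 486 and 422 CPM in mouse 1, 371 and 352 in mouse 2, and 312 and 479 in mouse 3 (repeats 1 and 2). Those labelled wild-type held 567.8 and 478, 791 and 431, and 566 and 434 CPM in the same order. In all 3 mice labelled wild-type the first repeat was the higher one, and the second repeats lay within the range of the libraries labelled BCL6-insufficient. Without the library of 791 CPM, wild-type mouse 2 repeat 1, the log2 difference was -0.24 (edgeR, adjusted p = 0.142). That library also had the highest share of counts in one ribosomal RNA gene, 20.9% against 12.03% to 17.1% in the others, and the lowest Nfatc1 library, BCL6-insufficient mouse 3 repeat 1, had the fewest counts (3343375) and the lowest such share. The median mitochondrial share was 2.70% with the BCL6-insufficient label and 2.02% with the wild-type label, and the part of these values in the difference was not tested. Without BCL6-insufficient mouse 2 the log2 difference was -0.29 (edgeR, adjusted p = 0.0816) and without wild-type mouse 2 it was -0.31 (edgeR, adjusted p = 0.0705). The call was lost in these fits and held in the other 4 of 6 that left out a mouse. Over these 6 fits the log2 difference ran from -0.45 to -0.29. Over all 25 alternatives the adjusted p of Nfatc1 ran from 0.000854 to 0.619 (edgeR, DESeq2 or limma), always with the same sign.

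Nfatc2 encodes the NFAT protein that resting T cells already hold, and lies on chromosome 2 from 168476410 to 168601657. The mice labelled BCL6-insufficient had 60.9, 52.6 and 54.0 normalised CPM and the mice labelled wild-type 42.2, 46.8 and 42.1. The labels did not overlap over mice, in the direction opposite to Nfatc1. The means were 55.8 ± 4.44 and 43.7 ± 2.65 CPM (SD, n = 3 each), with a log2 fold change of 0.35 (standard error 0.13) that missed the threshold (adjusted p = 0.0630 from edgeR's test). Over 25 alternatives the adjusted p ran from 0.0410 to 0.557 (edgeR, DESeq2 or limma). It passed under upper-quartile scaling and under a filter of at least 10 counts in every library.

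Nfatc3, on chromosome 8 from 106058840 to 106130537, encodes the third calcium-regulated factor measured here. Its libraries ranged from 80.7 to 115 CPM (median 93.9) with the BCL6-insufficient label and from 69.4 to 94.1 (median 82.1) with the wild-type label. The labels overlapped, and the log2 difference of 0.23 had a standard error of 0.12 (edgeR, adjusted p = 0.216). The last exon region of Nfatc3 overlaps that of Esrp2 on the other strand, and whether the counting used strand is not given in the sources used here. Esrp2 had 702 counts over the 12 libraries beside 6255 for Nfatc3. Nfat5, on the same chromosome from 107293470 to 107379517, was low, with 7.52 to 17.8 CPM (median 10.6) and 5.12 to 13.2 CPM (median 9.32) in libraries of the same order, from 25 to 145 counts each. Its log2 fold change was 0.32, with a standard error of 0.28 nearly as large (adjusted p = 0.483 from edgeR's test). Of other relatives, Nfatc4 never exceeded 2 counts in a library and did not enter the test.

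The relative amounts of the factors were also compared within each mouse, as the percentage of the summed CPM per kb of the 4 NFAT transcripts. This share does not depend on how libraries are scaled to each other. Nfatc1 made up 79.0%, 78.5% and 81.4% of the NFAT transcripts in the mice labelled BCL6-insufficient and 85.7%, 86.3% and 86.1% in the mice labelled wild-type. The difference was -6.39 percentage points. Nfatc3 made up 11.8% ± 1.002 against 8.36% ± 0.241 and Nfatc2 7.65% ± 0.357 against 4.99% ± 0.226 (SD, n = 3 each), differences of 3.42 and 2.67 points. In the first and the second repeats alone, the differences were -9.01 and -4.52 points for Nfatc1, 5.29 and 2.19 for Nfatc3, and 3.42 and 2.04 for Nfatc2, and with the deposited TPM -10.5 for Nfatc1 and 7.25 for Nfatc3. With repeats summed, the mice did not overlap between labels for these 3 genes, and each two-sided exact permutation test over mice gave p = 0.1, the smallest possible. Nfat5 stood at 0.930% ± 0.293 against 0.627% ± 0.220 with overlapping mice (exact permutation p = 0.2). The 4 shares of a mouse sum to 100%, so a lower share of one has to go with a higher share of others. The 7 shares tested here and below cannot reach a smaller p after adjustment than before it.

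**Figure D2:**
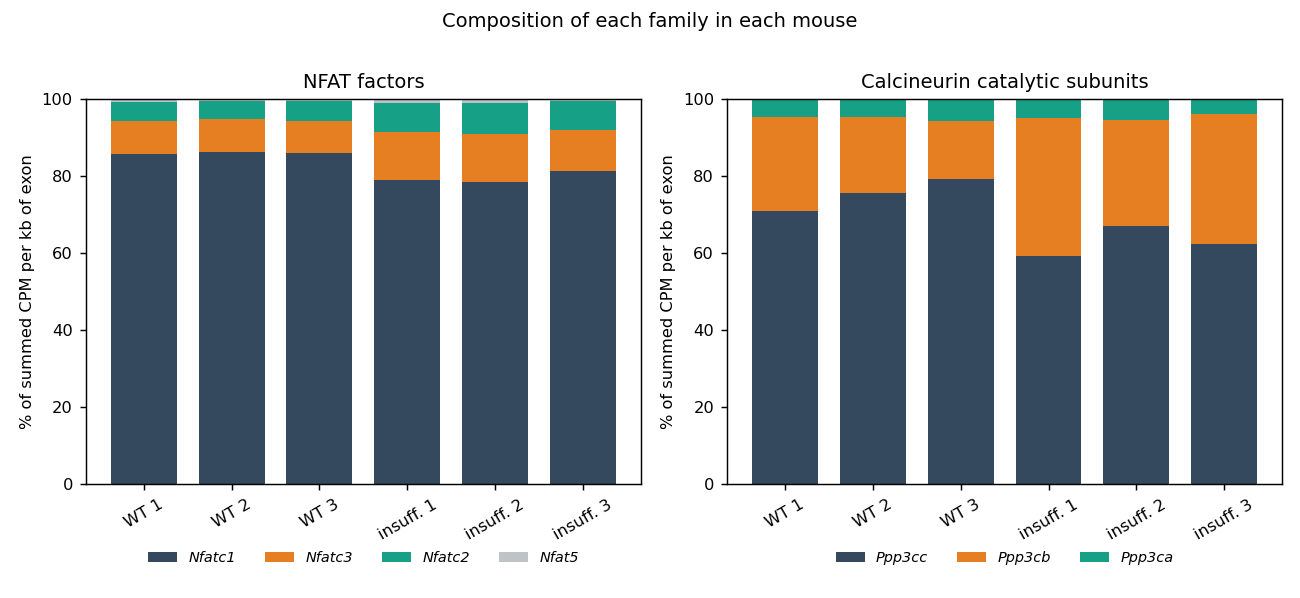
Stacked bars for each of the 6 mice (3 labelled wild-type, WT, and 3 labelled BCL6-insufficient, insuff.), showing each gene's percentage of the summed normalised CPM per kb of exon within the NFAT factors (left) and the calcineurin catalytic subunits (right). Nfatc1 fills 85.7% to 86.3% of the NFAT bars labelled wild-type and 78.5% to 81.4% of the others, and Ppp3cb fills 15.1% to 24.6% and 27.3% to 35.9% of the catalytic bars.

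Ppp3cb encodes the beta form of the calcineurin catalytic subunit, the form known to be prominent in lymphocytes, and lies on the minus strand of chromosome 14 from 20499364 to 20546573. It was about double in the mice labelled BCL6-insufficient, with 51.0, 45.3 and 47.9 normalised CPM against 30.8, 24.1 and 19.8 in the mice labelled wild-type. Both repeats of every mouse gave this order. The libraries held 47.1 and 53.6, 40.8 and 52.7, and 48.4 and 47.8 CPM in mice 1 to 3 labelled BCL6-insufficient, and 37.9 and 23.7, 29.7 and 19.7, and 19.8 and 19.9 in those labelled wild-type. The means were 48.1 ± 2.87 and 24.9 ± 5.52 CPM (SD, n = 3 each), or 1.94-fold. The log2 difference was 0.95 with a standard error of 0.16, and edgeR gave an adjusted p of 0.000324 (exact permutation over mice p = 0.1, the smallest possible). The call held in 6 of 6 fits that each left out one mouse, with log2 fold changes from 0.80 to 1.12. It was lost with the first repeat of each mouse alone (0.64, edgeR adjusted p = 0.0700), and over 25 alternatives the adjusted p ran from 4.75e-07 to 0.0740 (edgeR, DESeq2 or limma). An antisense transcript, 1810062O18Rik, overlaps the first part of the gene but none of its exons, and had 154 counts over the 12 libraries beside 2556 for Ppp3cb.

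The promoter of Ppp3cb is shown because it belongs to the one gene of the 9 whose libraries lay fully apart. The sequence is the 250 bases before the gene's start in RefSeq, build GRCm38.p6, chr14:20546574-20546823, minus strand, written 5′ to 3′. Capitals mark the letters GGAAA, the core that NFAT proteins bind, or its reverse complement TTTCC, searched on both strands.
Ppp3cb: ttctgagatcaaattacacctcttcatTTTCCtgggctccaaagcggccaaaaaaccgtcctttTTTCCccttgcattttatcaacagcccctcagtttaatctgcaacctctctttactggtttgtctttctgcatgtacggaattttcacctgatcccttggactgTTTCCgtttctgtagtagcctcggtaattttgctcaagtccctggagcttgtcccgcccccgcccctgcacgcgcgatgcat
It held 3 matches. The same 5 letters occurred on either strand in 55.6% of the 32851 mouse promoters of this length that were searched. A match is therefore common and describes the letters only. The promoters searched need not be all those in the reference. The letters TTCCTAGAA, a form of the BCL6 motif, occurred in 0.347% of these promoters. They occurred in 0 of the 9 promoters searched for the genes described here, which belong to 6 of them. No promoter of Nfatc1, Ppp3ca or Ppp3cc was among those searched, so nothing is said of theirs.

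Ppp3cc, the gamma form of the catalytic subunit, lies on chromosome 14 from 70217865 to 70289471, and Ppp3ca, the alpha form, on chromosome 3 from 136670124 to 136937727. Ppp3cc had 28.5, 37.7 and 30.02 normalised CPM in the mice labelled BCL6-insufficient and 30.04, 31.4 and 35.4 in those labelled wild-type. The labels overlapped throughout. The log2 difference of Ppp3cc was -0.0095 with a standard error of 0.16 (edgeR, adjusted p = 0.978), and its sign changed under 10 of 25 alternatives. Its exons overlap those of the antisense gene Gm49417, which had 408 counts beside 2267 for Ppp3cc. Ppp3ca was the lowest of the 3 forms per kb, with 7.79, 10.4 and 6.07 CPM against 6.50, 6.40 and 8.41 CPM, from 27 to 76 counts a library. Its log2 fold change was 0.19 with a standard error of 0.30 (adjusted p = 0.719 from edgeR's test).

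Within the catalytic subunits, by exon length, Ppp3cc was the largest share in every mouse and Ppp3cb the second. By the longest transcript, Ppp3cb stood above Ppp3cc in BCL6-insufficient mice 1 (13.3 against 11.4 CPM per kb) and 3 (12.5 against 12.04), so this order depends on the length used. The Ppp3cb share was 35.9%, 27.3% and 33.8% in the mice labelled BCL6-insufficient and 24.6%, 19.7% and 15.1% in those labelled wild-type, a difference of 12.6 percentage points. The Ppp3cc share was 62.9% ± 3.96 against 75.3% ± 4.25 (SD, n = 3 each), a difference of -12.3 points. The Ppp3cb difference was 5.16 points in the first repeats alone and 17.6 in the second, and that of Ppp3cc -5.16 and -17.3. With repeats summed, neither overlapped between labels (two-sided exact permutation p = 0.1 for each, the smallest possible). The share of Ppp3ca was 4.72% ± 0.890 against 4.95% ± 0.600 (exact permutation p = 0.9).

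Ppp3r1 encodes the calcium-binding B subunit that all 3 catalytic forms need, and lies on chromosome 11 from 17159263 to 17200375. The mice labelled BCL6-insufficient had 29.99, 25.6 and 30.6 normalised CPM and the mice labelled wild-type 28.0, 26.0 and 29.7. The values interleaved. The means were 28.7 ± 2.73 and 27.9 ± 1.89 CPM (SD, n = 3 each), with a log2 difference of 0.04 and a standard error of 0.16 (edgeR, adjusted p = 0.895), and the sign changed under 5 of 25 alternatives. Ppp3r1 shares exon sequence with Wdr92 on the same strand, which had 913 counts over the 12 libraries beside 1997 for Ppp3r1. The testis form of the B subunit, Ppp3r2, was not among the genes counted.

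Rcan1, on the minus strand of chromosome 16 from 92391953 to 92470867, was the lowest of the genes in CPM. The mice labelled BCL6-insufficient had 5.68, 5.33 and 4.73 normalised CPM and those labelled wild-type 3.48, 3.38 and 3.90. The mice did not overlap, but the libraries did, from 3.11 to 7.99 against 2.32 to 5.09 CPM. The means were 5.25 ± 0.480 and 3.59 ± 0.279 CPM (SD, n = 3 each), a fold of 1.46 and a log2 fold change of 0.55 with a standard error of 0.36 (adjusted p = 0.325 from edgeR's test). A library held only 13 to 47 counts of Rcan1. The difference was 1.03 with the first repeats alone and 0.02 with the second repeats alone, neither of which passed (adjusted p = 0.272 and 0.986 from edgeR). Rcan3, a related calcineurin regulator, had 16.3 ± 1.83 and 13.7 ± 4.996 CPM (SD, n = 3 each) and did not pass either (log2 fold change 0.26, adjusted p = 0.518 from edgeR).

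Both starts of Rcan1 that RefSeq gives in GRCm38.p6 are shown because transcripts from the downstream start are known to respond to NFAT, whereas counts per gene do not separate the starts. The windows are the 250 bases before each start on the minus strand, upstream start chr16:92466170-92466419 and downstream start chr16:92400079-92400328, with GGAAA or TTTCC in capitals as above.
Rcan1 upstream start: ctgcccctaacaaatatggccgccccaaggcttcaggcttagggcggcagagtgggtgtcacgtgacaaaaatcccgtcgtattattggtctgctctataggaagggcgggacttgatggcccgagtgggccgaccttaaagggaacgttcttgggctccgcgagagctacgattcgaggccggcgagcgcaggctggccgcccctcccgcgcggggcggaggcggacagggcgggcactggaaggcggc
Rcan1 downstream start: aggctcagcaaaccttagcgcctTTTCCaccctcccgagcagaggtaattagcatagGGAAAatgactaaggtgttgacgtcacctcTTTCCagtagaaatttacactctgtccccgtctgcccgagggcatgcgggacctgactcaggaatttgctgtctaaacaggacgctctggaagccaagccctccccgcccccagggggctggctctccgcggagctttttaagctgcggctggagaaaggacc
The downstream window held 3 matches and the upstream window 0.

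**Figure D3:**
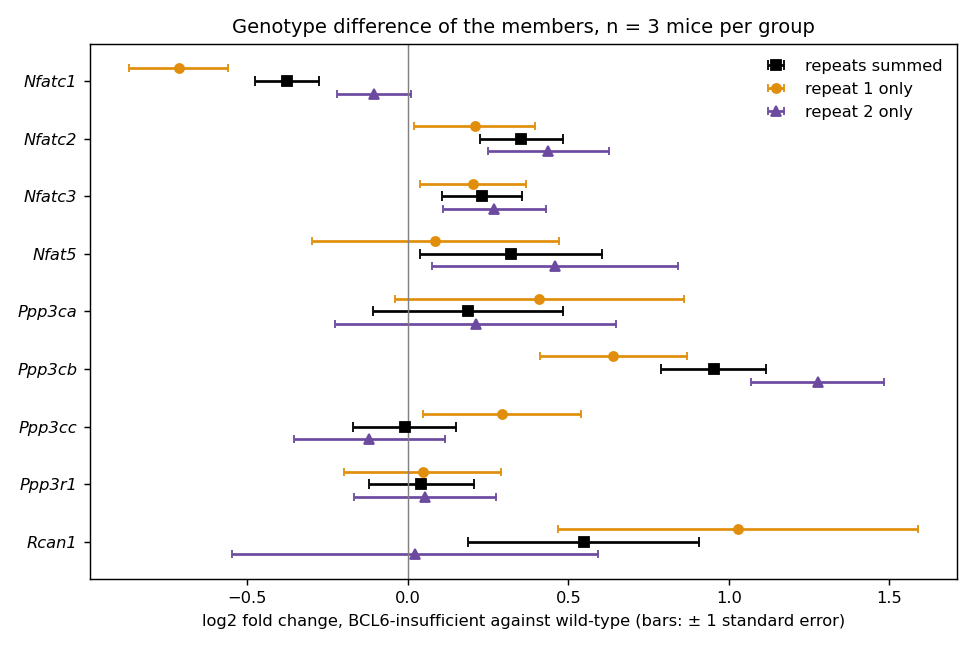
Log2 fold change of each gene, labelled BCL6-insufficient against labelled wild-type (x axis), with repeats summed per mouse (black squares), repeat 1 only (orange circles) and repeat 2 only (purple triangles), bars showing 1 standard error from edgeR with 3 mice per label. Nfatc1 moves from -0.71 in repeat 1 to -0.11 in repeat 2, and Ppp3cb from 0.64 to 1.28.

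Between the technical repeats of one mouse, several of these genes varied beyond counting error. For Nfatc1, the median absolute difference between the repeats of a mouse was 0.32 on the log2 scale, against a counting SD of 0.04, and it exceeded the 95% counting interval in 5 of 6 mice. The repeats exceeded this interval in 4 mice for Ppp3cc and Rcan1, in 3 for Nfatc2, Ppp3ca and Ppp3cb, in 2 for Nfatc3 and Nfat5, and in 1 for Ppp3r1. The interval covers counting error only, since these reads carry no molecular identifiers and are not independent molecules. The log2 fold change of Nfatc1 was -0.71 in the first repeats (adjusted p = 0.00195 from edgeR) and -0.11 in the second (adjusted p = 0.619 from edgeR). For Ppp3cb it was 0.64 in the first and 1.28 in the second (adjusted p = 6.31e-05 from edgeR). The direction of both genes was shared by the repeats. The change of the genotype difference from repeat 1 to repeat 2 was 0.61 (standard error 0.18) for Nfatc1 and 0.61 (standard error 0.30) for Ppp3cb, and that of Nfatc1 was 0.35 without BCL6-insufficient mouse 3. In edgeR, with the mouse as a block, the unadjusted p was 0.00154 and 0.0466 and the adjusted p 0.238 and 0.598 over 11259 genes. At the adjusted threshold 0 of the 9 genes and 0.115% of all genes passed, and at an unadjusted p under 0.05 these 2 of the 9 and 8.19% of all genes. The labels do not say that a repeat number marks a shared batch.

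**Figure D4:**
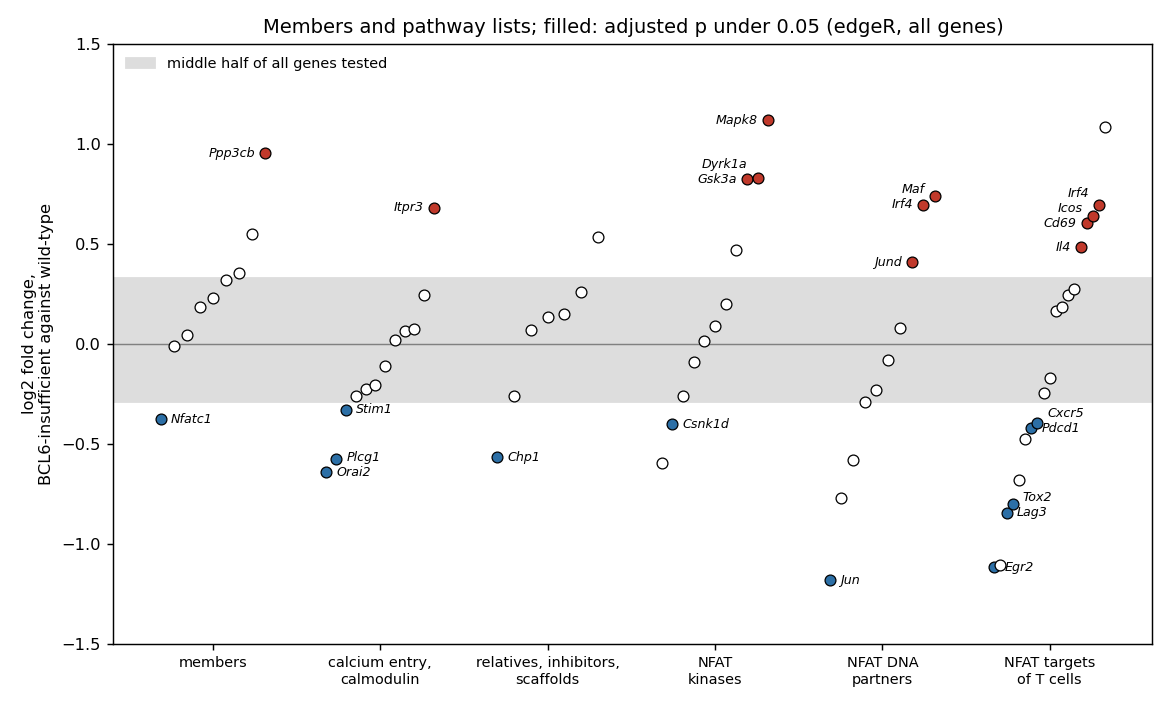
Log2 fold change (y axis, labelled BCL6-insufficient against labelled wild-type, 3 mice each) of the 9 genes and of the tested genes of 5 pathway lists, 1 point per gene, filled and named where edgeR's adjusted p over all genes was under 0.05. The grey band runs from the lower to the upper quartile of all genes tested, -0.29 to 0.33, and each list has unfilled points within it. Ppp3cb at 0.95 and Mapk8 at 1.12 are the highest filled points.

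Around the 9 genes, 71 further genes of the pathway were followed in 5 lists. Of these, 58 were tested, 10 rose, 11 fell and 37 did not pass, beside 9.17% higher and 8.82% lower among all genes tested, and the median log2 fold change was -0.03 beside 0.011. The lists were put together with results of these data known, so the counts are a description. Upstream of calcineurin, 12 of 12 calcium entry and calmodulin genes were tested. Itpr3, an IP3 receptor that releases stored calcium, rose (log2 fold change 0.68, adjusted p = 0.00742 from edgeR). Orai2, a subunit of the store-operated calcium channel, fell (-0.64, adjusted p = 0.0139 from edgeR), as did Plcg1, which makes IP3 (-0.57), and Stim1, the sensor of the calcium store (-0.33, adjusted p = 0.0372 from edgeR). In the first repeats alone Itpr3 (0.44, edgeR adjusted p = 0.320) and Orai2 (-0.30, edgeR adjusted p = 0.517) were not called. Stim1 was called in 1 of 6 fits that left out a mouse, with log2 differences of -0.40 to -0.28, and not after GC and length trends were removed (-0.23, edgeR adjusted p = 0.143).

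Of 12 further relatives, inhibitors and scaffolds of calcineurin, 7 were tested and only Chp1, a calcineurin B homologue that can inhibit the phosphatase, passed. It had 36.9 ± 3.39 CPM in the mice labelled BCL6-insufficient and 54.7 ± 4.42 in those labelled wild-type (log2 fold change -0.57, adjusted p = 0.00551 from edgeR). It was called in 6 of 6 fits that left out a mouse, but not in the first repeats alone (-0.44, edgeR adjusted p = 0.167) or with log2(TPM + 0.1) (-0.65, limma adjusted p = 0.0522). Among the kinases that rephosphorylate NFAT, 11 of 12 were tested, 3 rose and 1 fell, beside 9.17% higher and 8.82% lower among all genes. Mapk8, which encodes the kinase JNK1, had 14.1 ± 0.964 against 6.51 ± 0.920 CPM (SD, n = 3 each) and rose by 1.12 on the log2 scale (adjusted p = 0.00280 from edgeR). It missed the threshold with the second repeats alone (0.96, edgeR adjusted p = 0.0738). Dyrk1a, which primes NFAT for export from the nucleus, had 52.7 ± 1.75 against 29.8 ± 5.19 CPM (SD, n = 3 each), a log2 fold change of 0.83 (adjusted p = 0.000525 from edgeR), and passed with either repeat alone. Gsk3a rose by 0.82 (adjusted p = 0.0124 from edgeR), but not with the first repeats alone (0.39) nor in 2 of 6 fits that left out a mouse. Csnk1d, a casein kinase, fell by 0.40 (adjusted p = 0.0250 from edgeR), and lost its call after GC and length trends were removed (-0.28), in the first repeats alone (-0.15, against -0.71 in the second) and in 4 of the 6 fits.

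Of 12 genes for DNA-binding partners of NFAT, 10 were tested, 3 rose and 1 fell, beside 9.17% higher and 8.82% lower among all genes. Maf, a factor of Tfh cells that drives Il4 and Il21, had a log2 fold change of 0.74 (adjusted p = 0.00115 from edgeR) and Irf4, induced by T cell receptor signals, one of 0.70 (adjusted p = 0.00947 from edgeR). Maf was not called in the first repeats alone (0.60, edgeR adjusted p = 0.0800). Irf4 was 1.098 in the first repeats and 0.43 in the second (edgeR adjusted p = 0.168), and 0.40 without BCL6-insufficient mouse 1 (edgeR adjusted p = 0.140). The AP-1 genes were split. Jun had 4.98 ± 0.780 against 11.3 ± 6.74 CPM (SD, n = 3 each), a log2 fold change of -1.18 (adjusted p = 0.0198 from edgeR), and was called in 3 of 6 fits that left out a mouse and in neither repeat alone, where it was -1.17 in both (edgeR adjusted p = 0.1204 and 0.0619). Without wild-type mouse 3 it was -0.58 (edgeR adjusted p = 0.341). Jund had a log2 fold change of 0.41 (adjusted p = 0.0480 from edgeR), but -0.42 in the first repeats alone and 0.999 in the second, and was called in 8 of 25 alternatives.

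Of 24 T cell genes known as NFAT targets, 19 were tested, 4 rose and 5 fell, with a median of -0.17. Among all genes tested, 9.17% were called higher and 8.82% lower. Icos, a costimulatory receptor of Tfh cells, had 432 ± 38.4 against 278 ± 32.3 CPM (SD, n = 3 each) and rose by 0.64 on the log2 scale (adjusted p = 0.000147 from edgeR). Irf4 stands on this list as well, Cd69, an early activation marker, had a log2 fold change of 0.60 and Il4, a Tfh cytokine, one of 0.48 (adjusted p = 0.0216 and 0.0353 from edgeR). After GC and length trends were removed, Cd69 was 0.42 and Il4 0.21, neither called (edgeR adjusted p = 0.0981 and 0.428). Cd69 was also not called in the second repeats alone (0.52), nor Il4 in the first (0.40). Tox2, a nuclear factor of Tfh cells, had 135 ± 10.4 against 236 ± 10.4 CPM (SD, n = 3 each) and fell by 0.80 (adjusted p = 8.01e-06 from edgeR), and it was the only one of the called pathway genes whose call held in all 25 alternatives, with -1.17 in the first repeats and -0.44 in the second. Egr2, an early target of receptor signals, fell by 1.12 and Lag3, an inhibitory receptor, by 0.84 (adjusted p = 0.0123 and 0.00600 from edgeR). Egr2 was not called in the second repeats alone (-0.79, edgeR adjusted p = 0.219), nor Lag3 in the first (-0.62, edgeR adjusted p = 0.284), nor either without wild-type mouse 3 repeat 2 (-0.94 and -0.66, edgeR adjusted p = 0.0702 and 0.129). Pdcd1 (-0.42) and Cxcr5 (-0.40), the genes of both receptors used for the sort, were also called lower. Pdcd1 lost its call in the first repeats alone (-0.17, edgeR adjusted p = 0.541) and without wild-type mouse 3 repeat 2 (-0.27, edgeR adjusted p = 0.132). Targets thus went both ways. Of the 21 called pathway genes, 10 were called in all 6 fits that left out a mouse and 17 after GC and length trends were removed. Without wild-type mouse 3 the calls of Itpr3 (0.57), Gsk3a (0.64), Csnk1d (-0.35), Jun (-0.58), Jund (0.398), Irf4 (0.62), Il4 (0.35) and Cd69 (0.39) were lost, and without BCL6-insufficient mouse 1 those of Stim1 (-0.33), Gsk3a (0.59), Csnk1d (-0.34), Jund (0.27), Irf4 (0.395), Il4 (0.34) and Cd69 (0.54). Among these log2 differences, those of Jun and Cd69 without wild-type mouse 3 and of Jund and Irf4 without BCL6-insufficient mouse 1 were smaller by over 1.5 times than with all mice. The call of Orai2 was lost without BCL6-insufficient mouse 3 (-0.52) or wild-type mouse 1 (-0.596), and that of Egr2 without BCL6-insufficient mouse 2 (-0.85) or wild-type mouse 2 (-0.86). Without 1 library, wild-type mouse 3 repeat 2, 4 rather than 11 pathway genes were called lower. That library had the highest B cell marker sum at 958 CPM and the most detected genes (16249). Within its label it also had the most counts (7266106) and the lowest share in the ribosomal RNA gene (12.7%). The part of these values in the lost calls was not tested.

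The genes most like Nfatc1 across the 12 libraries, by Pearson correlation of log2 CPM among 5982 genes with at least 20 CPM on average, were Rbm38 (r = 0.937), Gm20490 (0.918), Sbf1 (0.909), Gm20628 (0.907) and H3c13 (0.906). All 5 were themselves called lower in the mice labelled BCL6-insufficient, with log2 fold changes from -1.71 to -0.35. Those most like Rcan1 were Tsr3 (r = 0.808), Snu13 (0.801), Ccdc117 (0.798), Mrpl55 (0.794) and Faah (0.789), of which Ccdc117 was called higher (0.52, adjusted p = 0.0471 from edgeR). These are descriptions, since the libraries share mice, labels and depth, and a gene as sparse as Rcan1 carries large counting error.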

How the data were processed

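RNA was sequenced from 12 libraries of about 200 sorted cells, made with a protocol adapted from SMART-Seq2. Per the labels and the methods of the study, the authors aligned the reads to mm10 with HISAT2 2.2.1 and counted them per gene with HTSeq. They deposited raw counts and, for 24530 of the 24561 genes, TPM values. The annotation release and strand setting are not given in the sources used here. No column was left unmapped.

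Counts of both repeats were added for each mouse, and edgeR 4.0.16 (R 4.3.3) compared the labels over 6 mice (filterByExpr, TMM, quasi-likelihood test, Benjamini-Hochberg adjustment over 12719 genes). Single values were compared by two-sided exact permutation tests over mice. Lengths, GC content and coordinates came from GENCODE M21 on GRCm38, which held 23822 symbols directly and 237 through another symbol, but not the other 502, and promoters from RefSeq. The genes named were the 9 members, Bcl6, every called pathway gene, Nfatc4, Ppp3r2, Rcan3 and the 5 genes most correlated with Nfatc1 and with Rcan1. The members and lists were chosen with earlier results of these data known.

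The alternatives were DESeq2 1.42.0, limma 3.58.1 on TPM or with voom, other scalings and filters, each repeat alone, the replicate number as a block, GC and length trends removed with mgcv 1.9.3, and each mouse left out. A further 3 fits, each without one library, were added after the data were seen. On simulated counts of 12705 genes, edgeR recovered 57.0% of 200 genes changed 2-fold, and 6.56% of its calls were unchanged genes. The simulation gave all genes the same set spread between mice and between libraries. In the data 2288 genes were called, so these rates need not hold there.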

Additional observations from a re-analysis of the deposited data

How the results depend on the processing

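Across the 25 alternatives, the log2 fold change of Ppp3cb ranged from 0.64 to 1.28 and kept its call in 22, and that of Nfatc1 ranged from -0.71 to -0.11 and kept its call in 18. Ppp3cb lost its call with log2(TPM + 0.1) (0.83, adjusted p = 0.0580 from limma), with log2(TPM + 1) over all genes (0.69, adjusted p = 0.0740 from limma) and with the first repeats alone. Nfatc1 lost its call in the same TPM fits (-0.54 and -0.52, adjusted p = 0.0695 and 0.0642 from limma) and with DESeq2 on 12 libraries (-0.43, adjusted p = 0.0654). The Nfatc1 call was also lost with the second repeats alone (-0.11), in a separate fit without wild-type mouse 2 repeat 1 (-0.24), and without either mouse 2 (-0.29 and -0.31). The cause was not tested. So 0 of the 9 genes were called higher in those TPM fits and in the first repeats, 2 with upper-quartile scaling or at least 10 counts in every library, and 0 were called lower where Nfatc1 lost its call. Leaving out each mouse gave 0 to 1 lower. The median of all genes, 0.011, itself moved to 0.045 with upper-quartile scaling. With log2(TPM + 1) and log2(TPM + 0.1) over filtered genes it was -0.07 and -0.11, and its part in the sign changes below was not tested. Ppp3cc was 0.0669 with edgeR and 0.0672 with DESeq2 on 12 libraries, 0.29 in the first repeats, 0.0243 with upper-quartile scaling, 0.0349 with GC and length trends removed and 0.17 without wild-type mouse 3 repeat 2, and ran from -0.14 to 0.0686 with each mouse left out. Ppp3r1 was -0.0575 with log2(TPM + 1) over filtered or all genes and -0.0699 with log2(TPM + 0.1), and from -0.0172 to 0.12 with each mouse left out, as Ppp3ca was from -0.0346 to 0.35. Jund was -0.42 in the first repeats.

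Among the pathway genes, 5 were called higher and 6 lower in the first repeats, 3 higher with log2(TPM + 1), 1 higher and 1 lower with log2(TPM + 0.1), 0 higher and 3 lower with log2(TPM + 1) over all genes, and 4 lower without wild-type mouse 3 repeat 2. With each mouse left out, 4 to 10 were higher and 7 to 10 lower. Over all genes, 1059 were called in the first repeats, 1446 in the second, 1330, 463 and 489 in the TPM fits in the order above, and 1424 to 1972 with a mouse left out, fewest without wild-type mouse 3. The shares of Nfatc1, Nfatc2 and Nfatc3 differed by -9.01, 3.42 and 5.29 points in the first repeats and by -4.52, 2.04 and 2.19 in the second, those of Ppp3cb and Ppp3cc by 5.16 and -5.16 and by 17.6 and -17.3, and with the deposited TPM those of Nfatc1, Nfatc3, Nfat5 and Ppp3ca by -10.5, 7.25, 0.695 and -1.24.

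The deviations of same-numbered mice of the labels had correlations of 0.0852, -0.0283 and 0.0247, beside -0.0834 to 0.0596 for mice with different numbers. The numbers were not taken to pair the mice, though deviations from a mean of 3 mice are weak ground for this. With the replicate number as a block, Nfatc1 was -0.38 (adjusted p = 0.00443 from edgeR) and Ppp3cb 0.97 (adjusted p = 0.000134 from edgeR), and no call among the 9 genes changed. With the block and GC and length trends removed, Nfatc1 was -0.31 (adjusted p = 0.0107 from edgeR) and Ppp3cc 0.0291.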
